A study of Homo sapiens with 6 samples.

Results

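NUDT21, CPSF6 and CPSF7 encode the subunits of cleavage factor Im (CF Im): NUDT21 gives CF Im25, CPSF6 gives CF Im68 and CPSF7 gives CF Im59. Each of these 3 genes was the target of 1 siRNA in a study of HEK293 cells, an immortalised human embryonic kidney line, and each is described here in all 6 libraries. The genes were taken as 3 windows of the hg19 genome: chromosome 16, minus strand, 56461000 to 56485500 for NUDT21, chromosome 12, plus strand, 69633000 to 69672000 for CPSF6, and chromosome 11, minus strand, 61168000 to 61197600 for CPSF7. They are 3 genes beside 28114 units, a unit being a run of poly(A) sites on 1 strand with gaps of at most 5 kb.

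The libraries were made by A-seq, which sequences the junction between the body of an mRNA and its poly(A) tail. The last base of a read is therefore taken as a cleavage site, and a gene's reads as a count of its polyadenylated RNA. Priming within a transcript could also give reads, and it was not tested. Cells were harvested 3 days after transfection, and each group held 1 library. Alkaline hydrolysis fragmented the RNA in 4 libraries: cells with no siRNA, cells with the siRNA labelled scrambled-A, cells with Ambion S224836 against CF Im25 and cells with Ambion S21772 against CF Im59. RNase I fragmented it in the other 2, again scrambled-A, and a Dharmacon duplex against CF Im68. Each knockdown was set against the scrambled library made with its own fragmentation, and the CF Im25 and CF Im59 comparisons share their control. The labels name 1 siRNA for each knockdown library (the title of the CF Im68 library ends in a 2 that they do not explain), and cells with less RNA from a gene and fewer cells expressing it cannot be told apart in such libraries.

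CF Im is a tetramer in which a CF Im25 dimer recognises UGUA in the nascent RNA upstream of a cleavage site, while CF Im59 or CF Im68, related proteins with an RNA recognition motif and an arginine and serine rich tail, join it and contact other processing factors. It is known for its part in the choice between poly(A) sites lying in tandem within a 3' UTR. Loss of CF Im25 or CF Im68 is known in cultured human cells for a widespread use of sites nearer the stop codon. The mRNAs of the subunits themselves end at several sites, so the comparisons ask both whether each siRNA lowered its own target's polyadenylated RNA and whether the ends used by the subunit mRNAs differed.

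The only siRNA whose bases the labels give is the CF Im68 duplex. It is shown because its place in the message can be set against annotated CPSF6 ends. Observed sites were not placed against it, since positions were not converted between builds. Capitals mark the 19 specified bases after 2 unspecified ones.
CF Im68 siRNA: nnGACCGAGAUUACAUGGAUA
These 19 bases matched transcripts of 1 gene, CPSF6, in the GENCODE v29 annotation (GRCh38). They lay in exon 2, within the coding sequence, at bases 255 to 273 of the 6616 bases of CPSF6-202, so 6343 bases separated the site from that transcript's end. In CPSF6-201 the site lay 2035 bases before the end, also in exon 2 and coding. Both transcripts thus carry the target.

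The annotated ends of the subunit mRNAs are shown next, because observed cleavage sites of CPSF6 and CPSF7 have nearly the same spacing. Each line is the last 30 bases of a GENCODE v29 transcript (GRCh38), and capitals mark AATAAA, the poly(A) signal bound by the CPSF complex. The transcripts ended by these bases differ in how much follows the coding sequence: 3582 bases in NUDT21-201, 434 in CPSF6-201, 4853 in CPSF6-202, 1982 in CPSF7-205 and 2064 in CPSF7-202.
NUDT21-201: tcatttcAATAAAaaatatttgaaagagaa
CPSF6-201: tgtagtgttgtAATAAActgtttaatgggg
CPSF6-202: tattgaaAATAAAacaaacttttgataaga
CPSF7-205: aaattgtgtAATAAActtgatgacgctgtc
CPSF7-202: atAATAAAtggggtgtgagctgttttatgg
All 5 ends hold AATAAA. Those of CPSF6 and CPSF7 were picked for their spacing, and NUDT21-201 is the NUDT21 transcript that ends last. The other protein-coding NUDT21 transcripts end 5213 and 10584 nt before it. The observed terminal NUDT21 sites have no such spacing, lying 2526 to 3479 nt upstream of the last. Of all 20 annotated protein-coding transcripts of the 3 genes, 6 hold AATAAA or ATTAAA in their last 30 bases, against 38.4% of 83119 protein-coding transcripts, and both counts include incompletely annotated transcripts. CPSF7-201, which ends 8 nt after CPSF7-202, is among those without, but only because the AATAAA of CPSF7-202 lies just before its last 30 bases. The letters TGTA, the DNA form of the CF Im25 motif, were searched on the sense strand of the last 100 bases. There were 3 in CPSF6-201, 2 in CPSF7-202 and 1 in each of the other 3, while 39.4% of the transcripts had at least 1 and 12.5% at least 2. The ends of CPSF6-201 and CPSF6-202 are 4419 nt apart, and 2 observed CPSF6 sites were 4418 nt apart. The ends of CPSF7-205 and CPSF7-202 are 82 nt apart, as were the only 2 CPSF7 sites. These are matches of spacing, since positions were not converted between builds.

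Library depth ran from 5351980 reads (scrambled siRNA, RNase I) to 18183644 (no siRNA), and values are given as CPM, reads scaled to a library total of 1000000. VIM, a mesenchymal gene of HEK293 cells, had 385 to 746 CPM and PAX2, a kidney developmental gene, 3.61 to 10.8 CPM, while HBB had no read and ALB at most 0.11 CPM. PTPRC, a leukocyte gene, reached 2.2 CPM in the no siRNA library and at most 0.619 CPM elsewhere. Intervals are 95% intervals for counting error only, since 1 library per group leaves no replicate spread and reads copied by PCR are not independent molecules. A total was called higher or lower at 2-fold or more if 1 library or both held 50 reads or more and the interval of the ratio excluded 1. This is a rule of size and not a test, and no p-value is given.

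Each subunit mRNA was called lower after its own siRNA. NUDT21, the target of the CF Im25 siRNA, had 105 CPM with no siRNA, 86.2 with scrambled siRNA, 11.8 after CF Im25 siRNA and 91.9 after CF Im59 siRNA, and 147 and 259 CPM with RNase I after scrambled and CF Im68 siRNA, in that order. The CF Im25 library is the lowest of the 4 alkaline ones, and its interval (9.85 to 14.1 CPM) lies apart from theirs. The fall was 7.29-fold against scrambled siRNA (interval 6.04 to 8.86; 126 against 835 reads) and 8.92-fold against no siRNA. Counted over the last run of NUDT21 sites alone it was 11.1-fold.

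CPSF6, the target of the CF Im68 siRNA, had 38.3 CPM in that library (interval 35.0 to 41.8) and 117 CPM in its RNase I control. The alkaline libraries gave 56.5 CPM with no siRNA, 49.6 with scrambled siRNA, 96.2 after CF Im25 siRNA and 91.6 after CF Im59 siRNA. The CF Im68 library was 3.05-fold below its control (interval 2.71 to 3.44; 498 against 625 reads). The CPSF6 level of the RNase I control itself was 2.35-fold above that of the alkaline control.

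CPSF7, the target of the CF Im59 siRNA, had 61.8 CPM with no siRNA, 62.4 with scrambled siRNA, 51.2 after CF Im25 siRNA and 28.1 after CF Im59 siRNA (interval 25.2 to 31.2). The RNase I libraries held 74.2 CPM with scrambled and 64.2 CPM with CF Im68 siRNA. The CF Im59 library was the lowest of the alkaline ones, 2.22-fold below scrambled siRNA (interval 1.95 to 2.54; 355 against 605 reads) and 2.20-fold below no siRNA. The lower bound against scrambled siRNA is under 2-fold, so counting error alone allows a fall short of the threshold.

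The falls differed in how far they stood out among all units. In these rankings and those below, the ratio over a gene's whole window is placed among ratios of units. The units count called sites only, so the measures are not quite alike. After CF Im25 siRNA 11.7% of 14983 units were called lower, and only 147 units (0.981%) had a ratio as low as that of NUDT21. For CPSF6 after CF Im68 siRNA the background was 7.75% of 13531 units, with 343 units (2.53%) as low. For CPSF7 after CF Im59 siRNA it was 10.5% of 15257 units, with 1220 (8.0%) as low. The fall of the CF Im59 target therefore had a size that many other units reached.

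**Figure D1:**
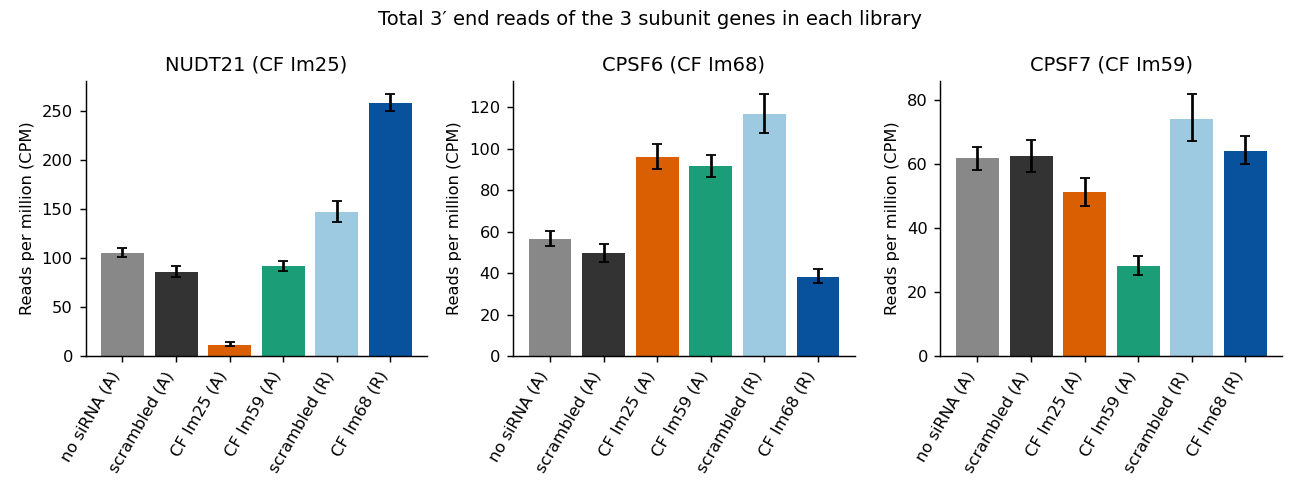
Total reads of NUDT21, CPSF6 and CPSF7 in each library, in CPM on linear axes from 0, with 95% Poisson intervals; A marks alkaline and R RNase I fragmentation. In each panel the library with the siRNA against that gene is below the scrambled library of its own fragmentation, at 11.8, 38.3 and 28.1 CPM.

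Among the subunits not targeted, none of the 6 gene and siRNA combinations was called in either direction. The background was 13.6% of units higher after CF Im25 siRNA, 9.09% after CF Im59 siRNA and 10.4% after CF Im68 siRNA. CPSF6 came nearest to the threshold. It was 1.94-fold above scrambled siRNA after CF Im25 siRNA (interval 1.74 to 2.16) and 1.85-fold above after CF Im59 siRNA (interval 1.66 to 2.06). Both libraries lay above both alkaline controls, by 1.70-fold and 1.62-fold over no siRNA. After CF Im25 siRNA, 2196 of 14983 units (14.7%) had a ratio at least as high, and after CF Im59 siRNA 1765 of 15257 (11.6%). The CF Im25 value passes 2-fold and would be called where single-read positions are left out (2.07-fold), where only called sites (2.03-fold) or the last run of sites (2.16-fold) are counted, and without the CPSF6 end at which most reads share 1 nucleotide (2.08-fold).

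NUDT21 had 1.75-fold more CPM after CF Im68 siRNA than in the RNase I control (interval 1.62 to 1.90), and 1868 of 13531 units (13.8%) had a ratio at least as high. With TMM scaling, which sets libraries level by a trimmed mean over units and raised every ratio of this comparison by 0.24 on the log2 scale, it was 2.07-fold higher and would be called. The same scaling changed the calls over all units from 1402 higher and 1048 lower to 2044 and 645. After CF Im59 siRNA it was 1.07-fold above scrambled siRNA (interval 0.975 to 1.17) and 1.15-fold below no siRNA, so its direction depends on the control. CPSF7 was 1.22-fold lower after CF Im25 siRNA (interval 1.08 to 1.37) and 1.16-fold lower after CF Im68 siRNA (interval 1.02 to 1.30). The latter direction turned with TMM scaling (1.02-fold higher).

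Without a targeting siRNA the subunit totals of the alkaline libraries differed little. No siRNA against scrambled siRNA gave 1.22-fold more NUDT21 (interval 1.13 to 1.33), 1.14-fold more CPSF6 (interval 1.02 to 1.27) and 1.01-fold less CPSF7 (interval 0.914 to 1.12). None was called, where 4.5% of 16791 units were called higher and 4.1% lower (755 and 688 units, or 955 and 552 with TMM scaling). Between the scrambled libraries of the 2 fragmentation methods, 23.3% of 14135 units were called higher with RNase I and 35.5% lower. CPSF6 was among those called higher (2.35-fold, interval 2.09 to 2.66), NUDT21 was 1.71-fold higher and CPSF7 1.19-fold higher, both uncalled. Fragmentation and any other difference between these 2 libraries cannot be told apart, so ratios of the CF Im68 library are taken only to its RNase I control.

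The reads of the subunit genes came from a few cleavage sites. Called sites, with ends merged within 25 nt and a mean of at least 1 CPM, numbered 8 in NUDT21, 10 in CPSF6 and 2 in CPSF7. They held 91.3% to 99.0%, 84.7% to 93.4% and 86.6% to 97.7% of the reads of each gene, by library. The 12 sites with at least 5% of a gene's reads in the mean over libraries are described by hg19 position and by distance upstream of the gene's last site. A share was called changed at 20 percentage points or more with at least 50 reads of the gene in both libraries and an interval that excludes 0.

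Of the 5 NUDT21 sites, 4 lay within 3479 nt of the last, and the annotated last exon is 3601 bases long. In the alkaline libraries the main site was at position 56466334, 3269 nt upstream of the last site at 56463065. It had 76.6 CPM with no siRNA, 59.0 with scrambled siRNA, 3.66 after CF Im25 siRNA and 58.9 after CF Im59 siRNA. The CF Im25 library stands apart, 16.1-fold below scrambled siRNA (interval 11.7 to 22.9). The last site fell from 8.26 to 1.22 CPM, 6.77-fold (interval 3.74 to 13.3). Other libraries gave it 10.6 CPM with no siRNA and 12.3 CPM after CF Im59 siRNA.

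The NUDT21 site farthest upstream did not follow the others after CF Im25 siRNA. The reads at 56480417, 17352 nt upstream, numbered 72 with no siRNA, 47 with scrambled siRNA, 40 after CF Im25 siRNA and 48 after CF Im59 siRNA, or 3.96, 4.85, 3.75 and 3.8 CPM. The knockdown library overlaps its controls here (1.29-fold lower, interval 0.830 to 2.02). Averaged over libraries, 97.8% of the reads at this site ended at a single nucleotide, against means of 39.5% to 57.4% at the other 4 NUDT21 sites. It held 1 and 3 reads in the RNase I libraries. With the other ends lower, its share of NUDT21 went from 5.63% to 31.8% (26.1 points, interval 18.4 to 34.8), and the main site's share from 68.5% to 31.0% (-37.6 points, interval -45.6 to -28.4). With this site left out the NUDT21 total was 10.1-fold lower. Whether its reads come from cleaved NUDT21 mRNA or from priming within a transcript was not tested.

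The terminal NUDT21 sites changed places after CF Im68 siRNA. The site at 56466544, 3479 nt upstream of the last, had 23.5 CPM in the RNase I control and 159 CPM after CF Im68 siRNA, 6.75-fold more (interval 5.64 to 8.15). Its share rose from 16% to 61.5% (45.5 points, interval 42.3 to 48.4). The last site fell from 76.8 to 9.77 CPM, 7.86-fold (interval 6.43 to 9.67), and from 52.1% to 3.78% of the gene. In between, the site at 56465591, 2526 nt upstream, had 29.7 and 43.8 CPM, 1.47-fold more after CF Im68 siRNA. At the last site 87.6% of the reads ended at a single nucleotide in the RNase I control and 72.4% after CF Im68 siRNA. In the alkaline libraries this was 40.6% to 51.3%. Whether the reads at that nucleotide mark cleavage was not tested.

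In the alkaline libraries 56466544 had 1.13 to 4.35 CPM and 56465591 had 0.375 to 5.93 CPM. The RNase I control was 6.71-fold and 12-fold above the alkaline control at these sites. The main alkaline site, 56466334, lies 210 nt downstream of 56466544 and had only 2.80 and 5.77 CPM with RNase I. In the scrambled libraries it was 21.1-fold lower with RNase I than with alkaline hydrolysis (interval 12.7 to 37.9), and the last site 9.30-fold higher (interval 7.31 to 12). Which end of NUDT21 was read as the main one thus differed between the scrambled libraries, with no targeting siRNA.

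**Figure D2:**
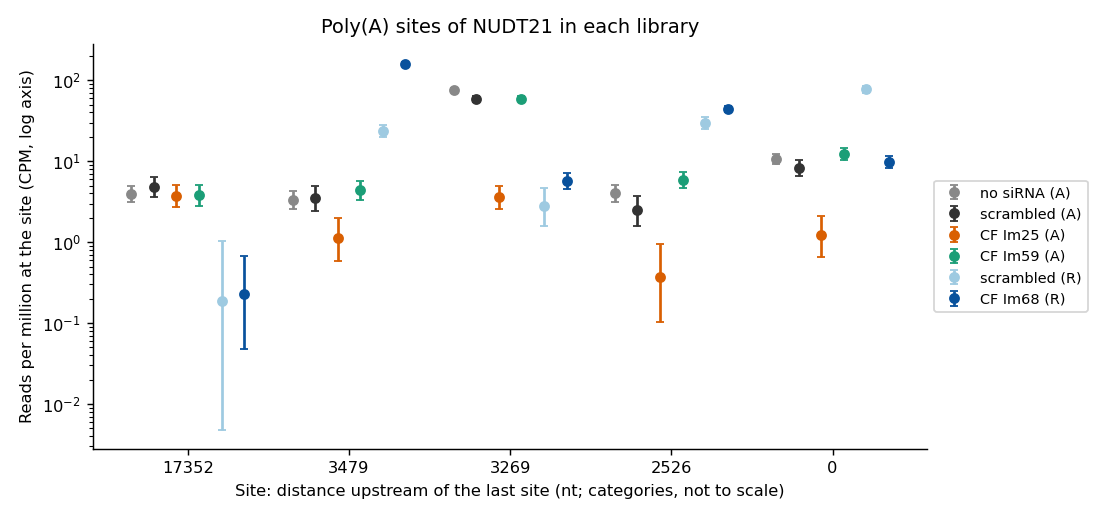
CPM (log axis) at the 5 described NUDT21 sites, named by distance upstream of the last site, in each library with 95% Poisson intervals; A marks alkaline and R RNase I fragmentation. The CF Im25 library is lowest among the alkaline ones at the 4 terminal sites and not apart at the site 17352 nt upstream; the CF Im68 library is highest at 3479 nt (159 CPM) and below its control at the last site (9.77 against 76.8 CPM).

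CPSF6 gained reads after CF Im25 siRNA at an upstream terminal site. Position 69663451, 4687 nt upstream of the last site at 69668138, had 2.92 CPM with no siRNA, 3.30 with scrambled siRNA, 34.5 after CF Im25 siRNA and 4.19 after CF Im59 siRNA. Among the alkaline libraries the CF Im25 one alone is high, 10.5-fold above scrambled siRNA (interval 7.28 to 15.5), and the share of CPSF6 reads at this site rose from 6.65% to 35.9% (29.3 points, interval 25.4 to 32.8). Against no siRNA the site was 11.8-fold higher. The RNase I libraries had 29.5 CPM with scrambled siRNA and 14.2 CPM after CF Im68 siRNA. The neighbouring site at 69663720, 4418 nt upstream and spaced from the last site as CPSF6-201 is from CPSF6-202, had 3.47, 5.88, 10.4 and 3.32 CPM in the same order. After CF Im25 siRNA it was 1.77-fold above scrambled siRNA (interval 1.28 to 2.48) and 3.01-fold above no siRNA (interval 2.19 to 4.16).

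The later CPSF6 sites did not move as 1 group after CF Im25 siRNA. The site at 69665311, 2827 nt upstream of the last, had 8.36 CPM with no siRNA, 8.87 with scrambled siRNA, 4.03 after CF Im25 siRNA and 9.10 after CF Im59 siRNA, so the CF Im25 library was 2.20-fold below scrambled siRNA (interval 1.51 to 3.25). The last site had 13.7, 7.43, 15.5 and 20.0 CPM. It was 2.08-fold above scrambled siRNA after CF Im25 siRNA and 2.69-fold above after CF Im59 siRNA, but only 1.13-fold and 1.46-fold above no siRNA, since the scrambled library is the low one here.

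An internal CPSF6 end was the site with the most reads both after CF Im59 siRNA and in the scrambled alkaline library. Position 69644371, 23767 nt upstream of the last site, had 12.6 CPM with no siRNA, 11.8 with scrambled siRNA, 17.3 after CF Im25 siRNA and 30.4 after CF Im59 siRNA. The CF Im59 library was 2.58-fold above scrambled siRNA (interval 2.09 to 3.21) and 2.41-fold above no siRNA. On average 93.2% of the reads at this end stopped at a single nucleotide. Without this end the CPSF6 total after CF Im59 siRNA was 1.62-fold above scrambled siRNA instead of 1.85-fold. Whether these reads mark cleavage or internal priming was not tested.

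After the CF Im68 siRNA, which targets CPSF6 itself, 3 of the 5 described sites were called lower than in the RNase I control. The site at 69663451 went from 29.5 to 14.2 CPM (2.07-fold lower, interval 1.67 to 2.58) and that at 69663720 from 38.9 to 12.2 CPM (3.20-fold, interval 2.59 to 3.96). The last site went from 11.02 to 3.69 CPM (2.98-fold, interval 2.01 to 4.46). The internal end had 4.67 and 2.77 CPM (1.69-fold, interval 0.970 to 2.89), with 25 and 36 reads, too few to be called. The site at 69665311 held only 5 and 2 reads, which allows no comparison. No share of CPSF6 was called changed, the nearest being 69663451 with 25.3% against 37.2% (11.9 points, interval 6.42 to 17.3).

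**Figure D3:**
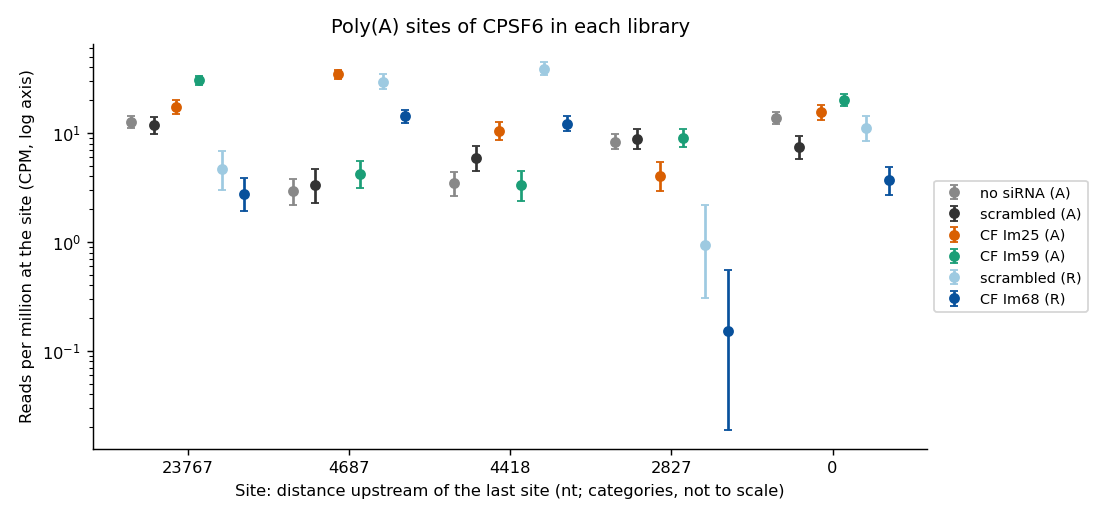
CPM (log axis) at the 5 described CPSF6 sites, named by distance upstream of the last site, in each library with 95% Poisson intervals; A marks alkaline and R RNase I fragmentation. The CF Im25 library is far above the other alkaline ones at 4687 nt (34.5 CPM), the CF Im59 library is highest at 23767 nt (30.4 CPM), and the CF Im68 library lies below its control at 4687, 4418 and 0 nt; the intervals overlap at 23767 and 2827 nt.

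CPSF7 ended at a tandem pair only 82 nt apart, 61170203 and the last site at 61170121. The upstream one had 50.4 CPM with no siRNA, 50.8 with scrambled siRNA, 47.8 after CF Im25 siRNA and 22.1 after CF Im59 siRNA, and 48.0 and 52.6 CPM with RNase I after scrambled and CF Im68 siRNA, in that order. Only the library with the siRNA against CPSF7 is low. The last site had 9.95, 9.49, 1.69 and 4.27 CPM in the alkaline libraries and 19.4 and 3.00 CPM in the RNase I ones. Here each of the 3 knockdown libraries is below the scrambled library of its own fragmentation.

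After CF Im59 siRNA both CPSF7 sites fell alike, 2.30-fold upstream (interval 1.98 to 2.67) and 2.22-fold at the last site (interval 1.57 to 3.17), and the upstream share of both was 83.8% against 84.3%, a change of -0.463 points (interval -5.59 to 4.32). After CF Im25 siRNA the last site alone fell, 5.62-fold (interval 3.37 to 9.90), and the upstream share went to 96.6% (12.3 points, interval 9.0 to 15.8, under the threshold of 20). After CF Im68 siRNA the last site fell 6.48-fold (interval 4.44 to 9.61), and the upstream share rose from 71.2% to 94.6% (23.4 points, interval 18.6 to 28.5). The share with no siRNA was 83.5%.

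The first measure for site choice, the upstream one of a gene's 2 most used sites as a share of both, suited CPSF7 but picked unlike pairs elsewhere. In NUDT21 it compared 56466544 with 56466334, 210 nt apart, and gave 17.9 points after CF Im25 siRNA (23.5% of 51 reads against 5.61% of 606), 1.27 after CF Im59 siRNA and 7.14 after CF Im68 siRNA, none called. In CPSF6 it compared the internal end at 69644371 with 69663451 and gave -44.7 points after CF Im25 siRNA (called), 9.79 after CF Im59 siRNA and 2.63 after CF Im68 siRNA. A second measure was therefore added after these values were seen. It sets terminal sites far upstream of the last against later ones. In NUDT21 the 4 sites 3269 to 3479 nt upstream were set against the last. In CPSF6 the 3 sites 4235 to 4687 nt upstream were set against the 4 after them. The NUDT21 comparison leaves out 56465591, 2526 nt upstream. That site held 20.15% of the gene's reads in the RNase I control and 16.93% after CF Im68 siRNA. Counting it among the later sites would lower both upstream shares.

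By this measure, the upstream share of CPSF6 was 20.1% with no siRNA, 32.8% with scrambled siRNA, 66.8% after CF Im25 siRNA and 17.1% after CF Im59 siRNA. The CF Im25 library is high (34.0 points over scrambled siRNA, interval 27.5 to 40.1), and the other 3 lie between 17.1% and 32.8%. This call rests on the choice of sites: over all CPSF6 sites before the last, the change was -0.458 points and not called. In the RNase I libraries the share was 84.4% with scrambled and 86.9% with CF Im68 siRNA, 2.47 points apart (interval -2.28 to 7.10).

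The upstream share of NUDT21 was 88.8% with no siRNA, 89.0% with scrambled siRNA, 81.7% after CF Im25 siRNA (71 reads) and 84.4% after CF Im59 siRNA, with no change called. It was 31.3% in the RNase I control and 95.4% after CF Im68 siRNA, a rise of 64.1 points (interval 60.2 to 67.7). Between the scrambled libraries, RNase I minus alkaline, the share differed by -57.8 points in NUDT21 and 51.7 points in CPSF6.

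**Figure D4:**
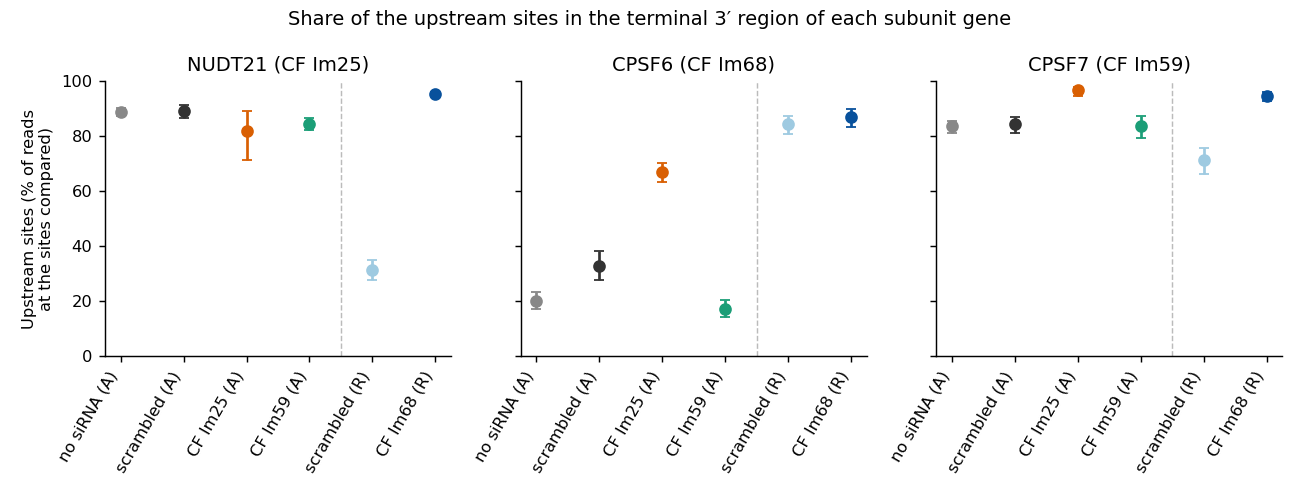
Upstream sites as a percentage of the reads at the terminal sites compared, for NUDT21 (4 sites against the last), CPSF6 (3 against 4) and CPSF7 (1 against 1), with 95% Wilson intervals; the dashed line parts alkaline (A) from RNase I (R) libraries. CPSF6 is high after CF Im25 siRNA (66.8%), and NUDT21 and CPSF7 are high after CF Im68 siRNA against their RNase I control (95.4% and 94.6%).

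Over the 12 described sites and the single-site shares, CF Im25 siRNA gave 2 shares called higher and 1 lower, CF Im68 siRNA 1 higher and 2 lower, and CF Im59 siRNA none. Of those called higher after CF Im25 siRNA, 1 was the NUDT21 site at 56480417. Its mean share of 7.58% was carried by that same library (31.8%, against 0.0893% to 5.63% in the others). Its place among the described sites is therefore not independent of its call. No siRNA against scrambled siRNA gave none, and RNase I against alkaline 2 higher and 1 lower. The percentages of sites called over all units with several sites were 7.89% higher and 7.61% lower of 20182 sites after CF Im25 siRNA, 2.42% and 2.33% of 20533 after CF Im59 siRNA, and 10.9% and 10.8% of 17073 after CF Im68 siRNA. They were 1.26% and 1.19% for no siRNA and 17.2% and 17% between the fragmentation methods. The measures are not alike. A share of a subunit gene is taken over all reads of its window. The percentages over all units take shares of a unit's called sites, in units with at least 2 sites of 5% or more. The internal ends at 56480417 and 69644371 lie outside the units of the terminal sites, so a call can differ between the measures. Shares within a gene sum to a whole, so the sites of a gene do not move independently.

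The other genes of the 3' processing machinery gave no call in the siRNA comparisons. The list of 17 held subunits of CPSF and its partner symplekin, of CstF and of CF IIm, the poly(A) polymerases PAPOLA and PAPOLG, the poly(A) binding protein PABPN1 and the CPSF-associated RBBP6. None was called after CF Im25 siRNA (13.6% of units higher and 11.7% lower), CF Im59 siRNA (9.09% and 10.5%) or CF Im68 siRNA (10.4% and 7.75%; CLP1 had too few reads to be called), and none for no siRNA (4.5% and 4.1%). The median log2 ratios were 0.16, -0.27, -0.15 and -0.21, where all units had 0.02, -0.04, 0.02 and -0.02.

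The members of the list farthest from 0 were below 2-fold in each knockdown. After CF Im25 siRNA these were CLP1, a CF IIm kinase (1.89-fold lower), CPSF3, the endonuclease that cuts the RNA (1.87-fold lower), and SYMPK, the symplekin scaffold (1.77-fold higher). Against no siRNA, CLP1 was only 1.185-fold lower (interval 0.916 to 1.54), CPSF3 1.82-fold lower and SYMPK 2.21-fold higher, called. The scrambled library was the high one for CLP1, with no siRNA 1.60-fold below it. After CF Im59 siRNA the farthest were CSTF2T, a CstF RNA-binding subunit (1.89-fold lower), CPSF2, a relative of the endonuclease (1.79-fold lower), and PCF11 of CF IIm (1.77-fold higher). Against no siRNA these were 1.48-fold lower, 1.46-fold lower and 1.62-fold higher, in that order. After CF Im68 siRNA CPSF3 was 1.48-fold lower and CSTF1 1.43-fold higher. Between the scrambled libraries, RNase I against alkaline, 8 of the 17 were called higher and 2 lower, where 23.3% of units were called higher and 35.5% lower. Among them were SYMPK (3.66-fold higher), PCF11 (3.57-fold higher), PABPN1 (3.13-fold higher), CLP1 (5.35-fold lower) and CSTF1 (2.47-fold lower).

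**Figure D5:**
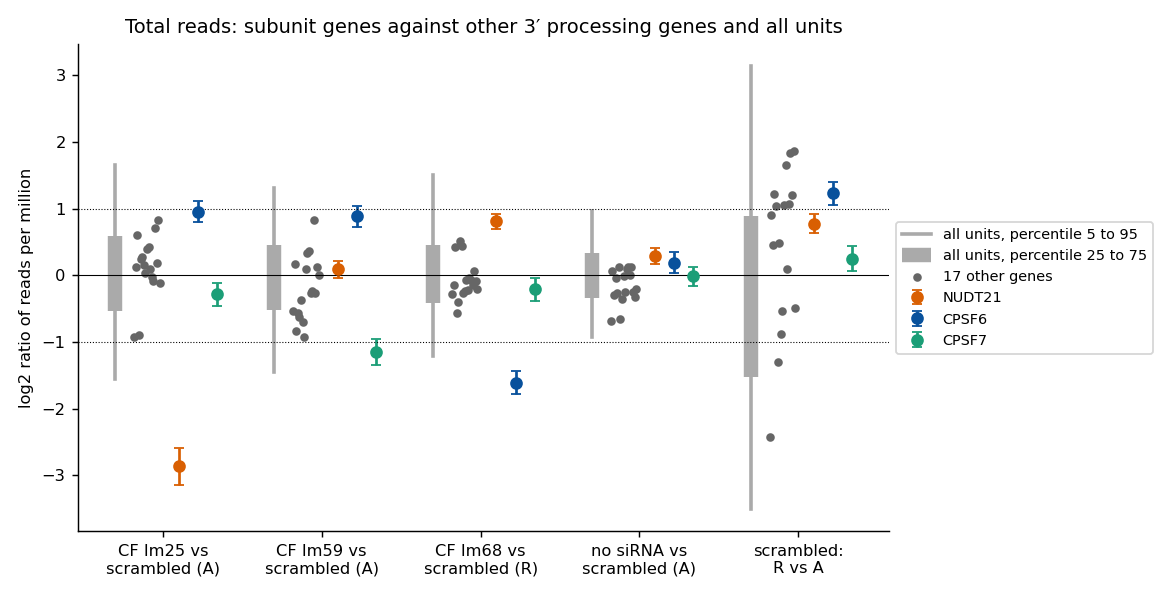
The log2 ratio of CPM for the 3 subunit genes (coloured, with 95% counting intervals), the 17 other 3' processing genes (grey points) and all units (bars from percentile 5 to 95 and 25 to 75), in 5 comparisons; dotted lines mark 2-fold. The targeted gene is the lowest point in each knockdown column (-2.87, -1.15 and -1.61), and the column for RNase I against alkaline has the widest spread.

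Across the 6 libraries the subunit totals had no common profile. Pearson's r of log2(CPM + 1) was -0.46 for NUDT21 with CPSF6, 0.25 for NUDT21 with CPSF7 and -0.28 for CPSF6 with CPSF7. The most similar of the other 19 listed genes were CPSF3 (r = 0.77) and PABPN1 (0.62) for NUDT21, CSTF3 (0.36) and WDR33 (0.25) for CPSF6, and PAPOLA (0.96) and CPSF4 (0.75) for CPSF7. Each r rests on 6 points that share library scaling and the split between fragmentation methods, and is a description.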

How the data were processed

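The deposited files give counts, per nucleotide and strand, of A-seq reads whose 3' end lies there, 1 library each, unscaled. The build is hg19 (GRCh37) per the submitters' processing notes. The aligner is not given in the sources used here, nor is any handling of duplicates or internal priming. Counts within each gene window were summed and scaled to all reads of the library. The windows of the 17 other genes and the markers were placed from known hg19 positions, with no annotation of that build used. Sites were called on the libraries pooled at equal weight (ends within 25 nt, mean CPM of at least 1). Ratios have exact conditional binomial, levels Poisson, shares Wilson and differences of shares Newcombe 95% intervals; they cover counting error alone. The calls are rules of size. The scripts (Python 3.11.15, scipy 1.17.1) were tested on simulated data. TMM factors came from edgeR 4.0.16 and median-of-ratios factors from DESeq2 1.42.0, as alternatives with no test.

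The members and lists were chosen with earlier results of these data known. All 3 members are named, with every site of at least 5% of a gene's reads in the mean over libraries. Of the 17 genes, those called are named, up to 5 in a comparison; those farthest from 0 in comparisons with no call were picked after their values were seen. The 2 most similar genes by r are named for each member. Sequences of annotated ends and the siRNA match come from GENCODE v29 transcripts (GRCh38), used for bases, lengths and spacing only.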

Additional observations from a re-analysis of the deposited data

Results flagged for a closer look

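On the strand opposite to NUDT21, which none of the comparisons uses, the CF Im25 library held 48 reads (4.503 CPM), above the limit of 0.2814 CPM that a count of 0 allows (3 reads). The other libraries held 0 to 3 reads. Of the 48 reads, 46 were at 1 site, hg19 chromosome 16, plus strand, position 56473625, with 34 at a single nucleotide, and that site had 1 read with no siRNA, 1 with scrambled siRNA and 0 in each of the other 3 libraries. The ratio to scrambled siRNA is at least 7.14-fold by the lower limit of its counting interval. The source of these reads was not tested.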

How the results depend on the processing

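No paired analysis was possible because each group held 1 library, and for the same reason no library could be left out. The target falls kept their direction and their call under all alternatives run (10 for NUDT21 and CPSF7, 9 for CPSF6): log2 ratios were -3.47 to -2.87 for NUDT21, -1.19 to -1.08 for CPSF7 and -1.66 to -1.37 for CPSF6. Causes of the other changes below were not tested, except that measures of site choice compare different sites by construction.

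For totals, NUDT21 after CF Im59 siRNA turned to -0.20 (log2) against no siRNA. CPSF7 after CF Im68 siRNA turned to 0.03 under TMM and to 0.01 under median-of-ratios scaling. CPSF7 for no siRNA turned to 0.07 with either scaling and was 0.0 in called sites or the last unit. With no siRNA as the control for CF Im25, 1 gene of the 17 was called higher. Without a minimum of reads, units called numbered 3746 higher and 3556 lower for CF Im25, 2556 and 3474 for CF Im59, and 3624 lower for CF Im68, where TMM gave 645 lower.

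Site choice depended most on the measure. With all sites before the last, the changes were -1.49 (CF Im25), -3.88 (CF Im59), 50.2 (CF Im68) and -44.2 points (RNase I) for NUDT21, and -0.458 (CF Im25), -7.88 (CF Im59), -11.8 (no siRNA) and 5.76 (RNase I) for CPSF6. With the upstream groups, chosen after seeing the data, they were -7.35, -4.61, 64.1 and -57.8 points for NUDT21, and 34.0, -15.7, -12.7 and 51.7 points for CPSF6. Thinned to the smallest library, CPSF6 for no siRNA gave -1.02, CPSF7 for CF Im59 2.33 and CPSF7 for no siRNA 0.0977 points; CPSF7 for CF Im59 against no siRNA gave 0.283 points. These last values are within counting error of 0.

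Levels of single sites under the other scalings turned for 56466334 after CF Im59 siRNA (0.07 by TMM, 0.06 by median of ratios), and in controls for 56466544 (0.02 and 0.02), 69665311 (0.0), 61170203 with no siRNA (0.07 and 0.08) and 61170203 with RNase I (0.13 and 0.17). The CPSF6 site at 69663451 after CF Im68 siRNA was under 2-fold lower with all 3 other scalings (1.76-fold to 1.98-fold). Sites with under 10 reads, as 69665311 with RNase I, allow no comparison at this depth.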
